A study of Mus musculus with 50 samples.

Results

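The spleens of untreated C57BL/6 mice were compared with the spleens of untreated BALB/c mice, on the 10 arrays whose titles give these strains without treatment, out of 50 arrays in the series. There were 4 arrays of C57BL/6 control mice and 6 arrays of BALB/c wild-type mice, all from females. The series followed spleen RNA after an intraperitoneal injection of oligodeoxynucleotides (ODN), and these 10 arrays were its baselines. On each array spleen RNA carried Cy5 and a Universal Mouse Reference RNA, a pool from several tissues and cell types, carried Cy3, so that every value is a log2 ratio of spleen over the same reference. A log2 ratio has no unit that holds across genes, and levels of different genes are not compared.

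Further arrays were used to follow the strain difference where the untreated arrays play no part. These were 4 arrays of C57BL/6 control mice against 4 of BALB/c mice, all 3 h after CpG ODN, and 4 arrays of untreated TNF-KO mice, a C57BL/6 line that lacks tumor necrosis factor, against 4 of BALB/c mice 3 h after control ODN. The design text gives 400 µg of ODN per mouse, the labels of the C57BL/6 arrays repeat no dose, and ages are given for neither strain. What C57BL/6 "control" means beyond the absence of the Tnf knockout is not given. The C57BL/6 arrays after CpG ODN were grouped by their titles, although another of their labels calls these mice untreated.

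C57BL/6 and BALB/c are inbred strains that differ at many loci of the immune system. C57BL/6 carries the H2b haplotype of the major histocompatibility complex (MHC) and BALB/c the H2d haplotype, the natural killer gene complex holds different sets of Ly49 receptor genes in each, and their immunoglobulin heavy chain loci are of different allotypes. BALB/c mice are known for type 2 helper T cell responses and C57BL/6 mice for type 1 responses.

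Each array held values for between 27619 and 30305 probes in C57BL/6 and between 28818 and 30555 probes in BALB/c, and no arrays were identical. The correlation across probes had a median of 0.892 between C57BL/6 arrays, 0.9 between BALB/c arrays and 0.837 between arrays of different strains. The B cell markers, 14 genes present on every array, averaged between 2.84 and 3.24 in C57BL/6 and between 2.55 and 3.19 in BALB/c, above the reference RNA on all 10 arrays. Pancreas transcripts varied widely within both strains, with means between 0.27 and 6.11 in C57BL/6 and between 0.43 and 5.62 in BALB/c, and 0 of 17 pancreas genes passed the limma test.

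The array numbers in the titles fall into runs, and no run holds both strains, so strain and run cannot be told apart. The C57BL/6 arrays also had a wider spread. Their median absolute deviation, scaled to stand for an SD, lay between 0.732 and 0.775, against between 0.613 and 0.684 in BALB/c, and these ranges do not overlap. Dividing each array by its spread lowers differences of genes with values far above the reference, and several calls that end under this scaling are named below. Within a strain, untreated TNF-KO and untreated C57BL/6 spleens differed in 10 genes (0.0671% of those tested) at an adjusted p under 0.05. BALB/c spleens after control ODN differed from untreated ones in 38 genes (0.249%). At an unadjusted p under 0.05 in limma's test the counts were 1628 and 3379, beside 4628 between the untreated strains. The control ODN arrays lie in another run than the untreated BALB/c arrays.

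Between the strains 2522 of 15132 genes, or 16.7%, passed limma's test with a Benjamini-Hochberg adjusted p under 0.05. Of these 1506 (9.95%) were higher in C57BL/6 and 1016 (6.71%) were lower. Unless another scaling is named, the counts of gene lists given below for untreated spleens are to be read beside these shares. The difference was at least 2-fold for 664 genes (4.39%). For 2177 genes (14.4%) all C57BL/6 arrays lay on one side of all BALB/c arrays, 1331 of them above (8.8%) and 846 below (5.59%). The median difference over all genes was 0.04, and the median standard error (SE) of a gene was 0.176. With arrays scaled to the same spread 1136 of the 15132 genes were higher and 868 lower. With quantile normalization 1142 were higher and 929 lower. List counts under these scalings are to be read beside these numbers.

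The largest differences are shown by array in the plot of leading genes. Among named genes the 20 largest higher values ran from 5.31-fold to 32.9-fold and the 20 largest lower values from 6.14-fold to 44.7-fold. Of these, 19 of the 20 higher genes and 19 of the 20 lower genes were also called between the strains 3 h after CpG ODN, where 15.2% of all genes were called. Between TNF-KO and control ODN BALB/c spleens the counts were 16 and 19, with 9.34% of all genes called.

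**Figure D1:**
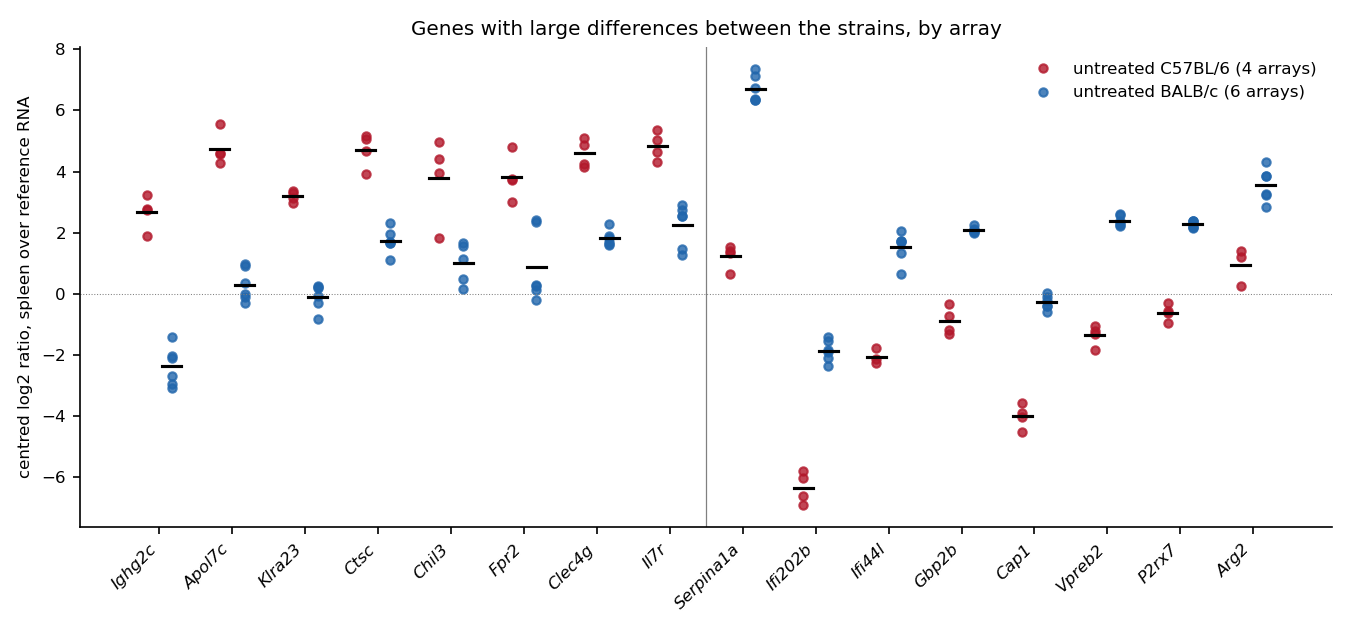
Centred log2 ratios (spleen over reference RNA, vertical axis) of 16 genes among the largest strain differences. Each point is 1 array, untreated C57BL/6 left and untreated BALB/c right for each gene, and bars are group means. The 8 genes on the left were higher in C57BL/6 and the 8 on the right lower, with no overlap of arrays.

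The largest difference against C57BL/6 was that of Serpina1a, one of the alpha-1 antitrypsins, protease inhibitors of blood plasma that mice encode in a cluster of near-identical copies. Serpina1a had log2 ratios of 1.35, 0.66, 1.52 and 1.40 in C57BL/6, against a lowest value of 6.34, a median of 6.56 and a highest value of 7.36 in BALB/c. It was 44.7-fold lower in C57BL/6 (difference -5.48 ± 0.23 SE, adjusted p = 1.1e-08). Serpina1b, Serpina1d and Serpina1e differed by -4.50, -4.29 and -4.04 (adjusted p = 4.9e-08, 1.1e-08 and 2.2e-07). Serpina1b and Serpina1e had no value on 1 C57BL/6 array each. All 4 copies lie side by side in gene order and none had overlapping arrays. A probe for one copy may bind RNA of the others, so the difference cannot be assigned to a single copy.

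The promoters of these 4 genes are printed because the genes were lower together. They are the RefSeq sequences of GRCm38.p6, the C57BL/6J assembly, from 250 bases before to 50 bases after each start, all from the minus strand. Serpina1a lies at chr12:103863570-103863869, Serpina1b at chr12:103738140-103738439, Serpina1d at chr12:103773584-103773883 and Serpina1e at chr12:103956848-103957147. Capitals mark the longest run that all 4 share, 59 bases.
Serpina1a: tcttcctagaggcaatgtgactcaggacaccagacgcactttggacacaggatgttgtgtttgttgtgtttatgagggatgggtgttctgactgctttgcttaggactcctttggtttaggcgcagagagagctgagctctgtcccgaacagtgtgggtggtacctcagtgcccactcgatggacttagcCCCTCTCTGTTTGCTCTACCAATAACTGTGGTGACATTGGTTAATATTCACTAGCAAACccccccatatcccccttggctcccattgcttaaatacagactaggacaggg
Serpina1b: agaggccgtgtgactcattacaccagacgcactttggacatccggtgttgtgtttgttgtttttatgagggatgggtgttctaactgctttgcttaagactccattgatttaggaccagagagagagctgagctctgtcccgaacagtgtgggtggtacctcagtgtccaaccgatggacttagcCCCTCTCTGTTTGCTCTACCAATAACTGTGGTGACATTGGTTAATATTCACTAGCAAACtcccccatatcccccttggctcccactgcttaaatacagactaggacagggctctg
Serpina1d: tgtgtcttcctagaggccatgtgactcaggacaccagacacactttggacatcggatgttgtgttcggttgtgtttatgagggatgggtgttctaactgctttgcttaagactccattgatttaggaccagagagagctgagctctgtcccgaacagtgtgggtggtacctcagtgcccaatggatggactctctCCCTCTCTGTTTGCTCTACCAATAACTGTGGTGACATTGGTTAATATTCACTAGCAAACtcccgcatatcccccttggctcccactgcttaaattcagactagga
Serpina1e: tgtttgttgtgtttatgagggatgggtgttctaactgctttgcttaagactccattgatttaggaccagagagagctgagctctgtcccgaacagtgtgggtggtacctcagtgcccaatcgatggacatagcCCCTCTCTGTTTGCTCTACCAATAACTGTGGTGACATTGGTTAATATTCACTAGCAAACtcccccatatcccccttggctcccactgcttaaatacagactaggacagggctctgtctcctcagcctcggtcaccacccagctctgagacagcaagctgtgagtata

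Without gaps and at the best shift, the promoter of Serpina1a matched that of Serpina1e at 95.9% of 243 positions and that of Serpina1b at 69.8% of 295. In a list of 10 tested serpins 2 were higher and 3 lower, beside 9.95% and 6.71% of all genes. The lower ones were Serpina1a, Serpina1b and Serpinb2. Serpinb2, plasminogen activator inhibitor type 2, had values of 0.20, -0.87, -1.47 and -0.52 in C57BL/6, against 1.20 to 2.16 in BALB/c (difference -2.27 ± 0.28, adjusted p = 0.00016). Serpina3n, an acute phase inhibitor, was higher in C57BL/6 by 1.10 ± 0.13 (adjusted p = 0.00012).

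Several genes known to be induced by interferon were lower in C57BL/6 spleen, and others were higher. Ifi202b, a cytosolic DNA-binding protein of the Ifi200 family, was at -6.03, -5.79, -6.61 and -6.92 in C57BL/6, against -2.36, -1.86 and -1.42 as the lowest, median and highest values in BALB/c. It was 22.4-fold lower (difference -4.48 ± 0.23, adjusted p = 4.9e-08). Its neighbours in the family, Ifi204 and Ifi205, were higher in C57BL/6 by 1.30 ± 0.16 and 0.90 ± 0.15 (adjusted p = 0.00011 and 0.0016), and with arrays scaled to the same spread Ifi205 missed the threshold (adjusted p = 0.064). Gbp2b, a guanylate-binding GTPase that acts against intracellular pathogens, read -0.34, -0.71, -1.33 and -1.20 in C57BL/6, against 1.98 to 2.24 with a median of 2.07 in BALB/c (difference -2.98 ± 0.18, adjusted p = 1.8e-07). Its relatives Gbp2 and Gbp3 went the other way, by 0.98 ± 0.14 and 0.86 ± 0.13 (adjusted p = 0.00047 and 0.00056). Ifi44l was measured on 3 C57BL/6 arrays, at -2.26, -2.13 and -1.78, against 0.66 to 2.05 in BALB/c (difference -3.59 ± 0.26, adjusted p = 1.4e-06).

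Over the whole list of interferon-stimulated genes 16 of 41 were higher and 2 lower in C57BL/6, beside 9.95% and 6.71% of all genes. The median difference was 0.44, beside 0.04 for all genes. Oasl2, related to the oligoadenylate synthetases, was higher by 1.58 ± 0.17 and Ifit3, an antiviral RNA-binding protein, by 1.64 ± 0.23 (adjusted p = 4.8e-05 and 0.00034). A second probe of Ifit3 gave 0.66. Bst2, which tethers budding virus to the cell, was higher by 0.83 ± 0.14 (adjusted p = 0.0012). Ifit2, Ifit3, Ifit1bl2 and Ifit1 formed a run of 4 called neighbours. With arrays scaled to the same spread the counts were 11 higher and 2 lower. Between TNF-KO and control ODN BALB/c spleens 4 were higher and 6 lower, beside 3.61% and 5.73% of all genes. The median there was -0.14. After CpG ODN 1 was higher and 4 were lower, beside 8.47% and 6.73% of all genes, with a median of -0.02. Bst2 was called in the TNF-KO comparison (adjusted p = 0.025), while Oasl2 and Ifit3 were not (adjusted p = 0.65 and 0.1). Ifi204, Ifi205, Gbp2 and Gbp3 were not called there either (adjusted p = 0.33, 0.81, 0.21 and 0.29).

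The promoters of Ifi202b and Gbp2b are shown because both genes were far apart between the strains and stayed apart after CpG ODN. They come from the same RefSeq table (GRCm38.p6). Ifi202b lies at chr1:173982795-173983094 on the minus strand and Gbp2b at chr3:142594597-142594896 on the plus strand. Capitals mark a match on either strand to the core of the interferon-stimulated response element, searched as a GAAA pair in the same direction with any 2 bases between, or to TTCNNNGAA, the gamma-activated site.
Ifi202b: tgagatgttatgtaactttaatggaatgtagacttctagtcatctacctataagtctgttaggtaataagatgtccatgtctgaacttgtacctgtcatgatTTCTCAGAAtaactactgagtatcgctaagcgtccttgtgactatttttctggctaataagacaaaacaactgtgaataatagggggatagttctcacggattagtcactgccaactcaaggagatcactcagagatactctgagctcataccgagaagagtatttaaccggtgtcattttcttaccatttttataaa
Gbp2b: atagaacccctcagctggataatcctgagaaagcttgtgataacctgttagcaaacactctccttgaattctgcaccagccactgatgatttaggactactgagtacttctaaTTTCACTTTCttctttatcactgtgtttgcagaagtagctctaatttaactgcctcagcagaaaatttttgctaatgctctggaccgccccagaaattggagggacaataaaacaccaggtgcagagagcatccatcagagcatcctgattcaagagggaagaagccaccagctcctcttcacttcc

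The Ifi202b window held 1 gamma-activated site match, which 8.47% of 27025 promoters hold, and the Gbp2b window 1 response element match, held by 3.49%. Neither motif was found in the window of Ifi44l.

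In the MHC region C57BL/6 spleen had higher ratios along a row of 8 called neighbours, Psmb9, Tap1, Psmb8, Tap2, H2-Ob, H2-Ab1, H2-Aa and H2-Eb1. These encode immunoproteasome subunits, the peptide transporter of class I loading, and class II chains that present peptides to helper T cells. H2-Ab1 was at 6.69, 6.38, 6.91 and 6.24 in C57BL/6, against 4.71 to 5.27 with a median of 5.04 in BALB/c (difference 1.55 ± 0.17, adjusted p = 5.4e-05). H2-Oa, a chain of the H2-O regulator of peptide loading in B cells, was higher by 1.64 ± 0.20 (adjusted p = 0.00011). Tap1 was higher by 1.06 ± 0.14 (adjusted p = 0.00031), with 1.69 to 2.37 in C57BL/6 and 0.84 to 1.03 in BALB/c. Of 10 class II genes 6 were higher and 0 lower, of 13 class I genes 6 and 0, and of 10 genes of class I loading 6 and 0. The medians were 0.86, 0.41 and 0.49, and 9.95% of all genes were higher. Between TNF-KO and control ODN BALB/c spleens 1, 4 and 1 were higher and 0 lower, beside 3.61% of all genes higher. After CpG ODN 5, 3 and 1 were higher, and 1 class I gene was lower, beside 8.47% of all genes higher and 6.73% lower. In the TNF-KO comparison Tap1 and H2-Ob were called (adjusted p = 0.038 and 0.0015). H2-Ab1, H2-Oa, H2-Aa and H2-Eb1 were not (adjusted p = 0.065, 0.22, 0.62 and 0.5).

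The counts between untreated spleens moved with the scaling. With arrays scaled to the same spread 2 class II genes, 3 class I genes and 1 loading gene were higher, and 1 class I gene was lower. H2-Aa, at 1.06 ± 0.22 in the median-centred values (adjusted p = 0.0048), then had a difference of -0.01, and H2-Eb1, at 1.00 ± 0.21, had an adjusted p of 0.67. Psmb8 (0.56 ± 0.15), Psmb10 (0.60 ± 0.15), Tap2 (0.84 ± 0.24), H2-Ob (1.10 ± 0.29) and H2-K1, a classical class I heavy chain (0.74 ± 0.16), also missed the threshold then. Second probes of Psmb10 and Psmb8 gave -0.08 and 0.23. H2-Q10, a secreted class I molecule, was at 1.20, 0.63, 2.39 and 1.23 in C57BL/6, against -0.24 to 0.39 in BALB/c (difference 1.27 ± 0.28, adjusted p = 0.0083), and the strains did not overlap for it on the other 40 arrays either. The class I genes H2-T24 and H2-M3 were higher by 0.83 ± 0.18 and 0.81 ± 0.21 (adjusted p = 0.0069 and 0.02). Class I and class II genes have near-identical relatives and differ in sequence between haplotypes, and whether this enters the ratios was not tested.

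H2-Ea, the class II alpha chain that mice of the H2b haplotype do not make because of a deletion at its promoter, could not be fitted because it had a value on 0 of 4 C57BL/6 arrays. On the 6 BALB/c arrays it read 6.84 to 8.24 with a median of 7.51. Over the whole series it had a value on 2 of 16 C57BL/6 arrays, with a mean of 0.16, and on 34 of 34 BALB/c arrays, with a mean of 7.84. It was 1 of 52 probes missing on all untreated C57BL/6 arrays and present on all untreated BALB/c arrays, while 0 probes showed the reverse. The table keeps probes with values on at least 35 of 50 arrays, and BALB/c supplied 34 of them and C57BL/6 16, so a transcript measured in C57BL/6 alone could not be in it. Npy, neuropeptide Y, was likewise missing on all 4 C57BL/6 arrays and read 2.51 to 3.67 in BALB/c. Npy and H2-Ea were chosen after their values were seen.

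**Figure D2:**
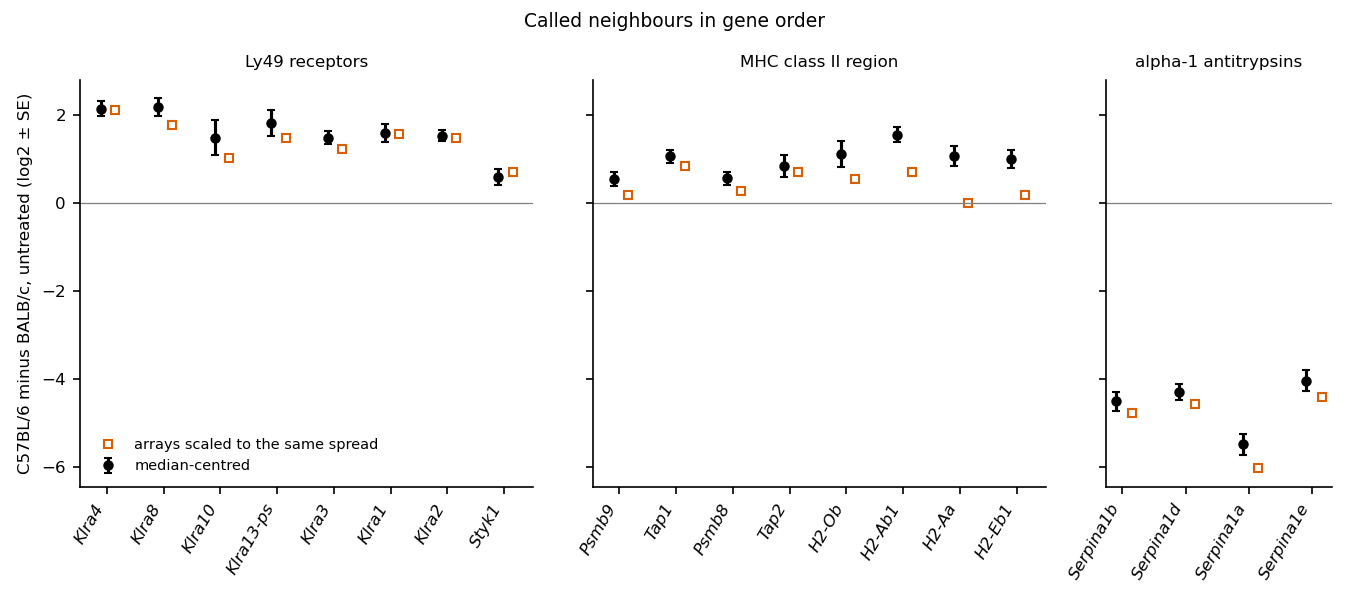
C57BL/6 minus BALB/c (log2, vertical axis) for 3 runs of called neighbours in gene order. Filled circles are median-centred values with SE, open squares the same genes with arrays scaled to the same spread. All Ly49 and class II region genes were above 0 in the first setting and H2-Aa reached -0.01 in the second, while the alpha-1 antitrypsins stayed below -4 in both.

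The natural killer gene complex held the other run of 8 called neighbours, Klra4, Klra8, Klra10, Klra13-ps, Klra3, Klra1, Klra2 and Styk1, all higher in C57BL/6. The Klra genes encode Ly49 receptors, which bind class I molecules on the surface of target cells and inhibit or activate natural killer cells. Klra23 was at 3.37, 2.98, 3.29 and 3.14 in C57BL/6, against -0.83 to 0.26 with a median of 0.05 in BALB/c. This was a 9.78-fold difference (3.29 ± 0.20, adjusted p = 1.9e-07). Klra8, the activating receptor Ly49H that recognises mouse cytomegalovirus, was higher by 2.17 ± 0.20 (adjusted p = 8.1e-06), with 3.48 to 3.93 in C57BL/6 and 0.97 to 2.16 in BALB/c. Klra16, Klra4 and Klra2 were higher by 2.28, 2.14 and 1.52 (adjusted p = 1.5e-06, 1.7e-06 and 2.5e-06).

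Of 27 tested receptors of the complex 16 were higher and 1 was lower in C57BL/6, with a median difference of 1.17. Scaling the arrays left 13 higher and 1 lower, and Klra10 (1.48 ± 0.40) was no longer called. Klrb1c, which carries the NK1.1 epitope in C57BL/6, was higher by 1.28 ± 0.18 (adjusted p = 0.00037), and Klrk1, the activating receptor NKG2D, by 1.17 ± 0.20 (adjusted p = 0.0014). Of 12 natural killer cell markers, a list that shares Klrb1c and Klrk1 with the receptors, 5 were higher and 1 was lower. Among them Nkg7, a granule protein, differed by 1.41 ± 0.20 and Il2rb, the beta chain of the interleukin 2 receptor, by 1.03 ± 0.17 (adjusted p = 0.00039 and 0.0014). With arrays scaled to the same spread 4 of the 12 were higher and 2 lower. After CpG ODN the counts were also 4 and 2, beside 8.47% and 6.73% of all genes. Between TNF-KO and control ODN BALB/c spleens they were 2 and 2, beside 3.61% and 5.73%. Klrb1c, Nkg7 and Il2rb were called after CpG ODN (adjusted p = 0.041, 0.0029 and 0.018), and Klrk1 was not (adjusted p = 0.68). In the TNF-KO comparison only Il2rb of these was called (adjusted p = 0.031). Ly49 genes are near-identical copies and their number differs between strains, so a probe named for one may read another.

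Several constant regions of immunoglobulin heavy chains were higher in C57BL/6. Ighg2c, the constant region that C57BL/6 carries where BALB/c carries Ighg2a, had the largest difference in favour of C57BL/6 and was at 1.90, 2.74, 2.78 and 3.23 in C57BL/6, against a lowest value of -3.08, a median of -2.39 and a highest value of -1.42 in BALB/c. It was 32.9-fold higher (difference 5.04 ± 0.32, adjusted p = 2.2e-07). Ighg1 differed by 3.84 ± 0.25 and Igha by 2.77 ± 0.19 (adjusted p = 2.9e-07 and 5.8e-07), and neither had overlapping arrays. Vpreb2, a surrogate light chain of precursor B cells, was at -1.06, -1.83, -1.23 and -1.31 in C57BL/6, against 2.22 to 2.62 in BALB/c (difference -3.76 ± 0.16, adjusted p = 1.1e-08). In the immunoglobulin list 6 of 14 genes were higher and 1 lower, with a median difference of 0.36. With arrays scaled to the same spread 5 were higher and 2 lower, and the median was -0.24. With quantile normalization 5 were higher and 1 lower, and the median was -0.05. Among markers of the cells that make these chains, 1 of 14 B cell genes was higher, none was lower, and 0 of 7 plasma cell genes were called. Among all genes 9.95% were higher and 6.71% lower. Lists this short, with counts near those shares, cannot show whether B cells or plasma cells differed.

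Markers of T cells and dendritic cells were higher in C57BL/6 in part. Of 14 T cell genes 9 were higher and 0 lower, with a median difference of 0.74, and their mean per array ran from 1.84 to 2.08 in C57BL/6 and from 1.04 to 1.49 in BALB/c. Cd3d, a chain of the T cell receptor complex, was higher by 1.31 ± 0.29 and Cd5, an inhibitory surface protein of T cells, by 0.98 ± 0.18 (adjusted p = 0.0073 and 0.0023). Cd8a was higher by 1.07 ± 0.22 and Thy1 by 0.74 ± 0.13 (adjusted p = 0.005 and 0.0022), but their second probes gave 0.46 and -0.14. With arrays scaled to the same spread 5 T cell genes were called and Cd3d was not (adjusted p = 0.28). After CpG ODN 5 T cell genes were higher and 0 lower, beside 8.47% and 6.73% of all genes. Between TNF-KO and control ODN BALB/c spleens 2 were higher and 0 lower, beside 3.61% and 5.73%. Cd3d and Cd8a were called after CpG ODN (adjusted p = 0.0084 and 0.0065) and Thy1 in the TNF-KO comparison (adjusted p = 0.03). Cd5 was called in neither (adjusted p = 0.2 and 0.58). In RNA of a whole spleen, fewer cells of a type and less RNA per cell cannot be told apart.

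Il7r, the interleukin 7 receptor of T cells and early lymphocytes, was among the largest differences, with 4.31, 4.63, 5.02 and 5.37 in C57BL/6 and 1.28 to 2.89 in BALB/c (difference 2.59 ± 0.32, adjusted p = 0.00016). Its second probe gave 0.60, with overlapping arrays. Of 14 dendritic cell genes 7 were higher and 0 lower, with a median of 0.58, and 4 were higher after scaling. After CpG ODN 3 were higher and 0 lower, beside 8.47% and 6.73% of all genes. Between TNF-KO and control ODN BALB/c spleens 3 were higher and 1 lower, beside 3.61% and 5.73%. Clec9a, which binds dead cells on dendritic cells that cross-present antigen, was at 1.64, 1.72, 1.91 and 2.51 in C57BL/6, against 0.23 to 0.79 in BALB/c (difference 1.45 ± 0.18, adjusted p = 0.00018). Flt3, a growth factor receptor of their precursors, was higher by 1.24 ± 0.17 (adjusted p = 0.00038). Zbtb46, a transcription factor of the lineage, was higher by 1.21 ± 0.19 (adjusted p = 0.00073), and another probe of it gave 0.23.

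Apol7c, an apolipoprotein L, had the second largest value in favour of C57BL/6. It read 5.56, 4.29, 4.56 and 4.60 in C57BL/6, against -0.29 to 0.97 with a median of 0.17 in BALB/c (difference 4.45 ± 0.29, adjusted p = 2.6e-07). Its neighbours Apol10a and Apol10b were higher by 2.00 ± 0.31 and 0.70 ± 0.19 (adjusted p = 0.0007 and 0.025), and Apol10b lost its call with array run as a random block (adjusted p = 0.056). These genes are close relatives, so their probes may share RNA.

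Genes of helper T cell subsets and chemokines went both ways. Il4, the signature cytokine of type 2 cells, was at 0.27, 1.17 and 0.14 on the 3 C57BL/6 arrays that measured it, against 1.56 to 2.58 in BALB/c (difference -1.49 ± 0.26, adjusted p = 0.002). Hopx and Cxcr3, which mark type 1 cells among others, were higher in C57BL/6 by 2.23 ± 0.19 and 1.46 ± 0.17 (adjusted p = 5.1e-06 and 0.00011). The receptor Il4ra was higher too, by 0.73 ± 0.16 (adjusted p = 0.007). Of 27 genes in the helper T cell list 7 were higher and 3 lower, and of 27 chemokines 7 were higher and 6 lower. Among all genes 9.95% were higher and 6.71% lower. Ccl19 and Ccl21a, which draw T cells and dendritic cells into the white pulp, were higher by 1.32 ± 0.19 and 1.09 ± 0.18 (adjusted p = 0.00048 and 0.001), and Ccl21a missed the threshold with scaled arrays. Ccl24, an attractant of eosinophils, was at -0.20, -1.06, -1.46 and -0.84 in C57BL/6, against 0.58 to 1.36 in BALB/c (difference -1.87 ± 0.22, adjusted p = 0.0001), and Ccl2, an attractant of monocytes, differed by -1.04 ± 0.16 (adjusted p = 0.00063).

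Sensors of microbial products were called in part. Of 24 Toll-like receptors and adaptors 4 were higher and 0 lower, beside 9.95% higher among all genes, namely Cd180, Tlr13, Myd88 and Tlr1, by 0.91 ± 0.18, 0.99 ± 0.26, 0.61 ± 0.16 and 0.72 ± 0.21, and with arrays scaled to the same spread none of these 4 was called. Of 12 inflammasome and NOD genes 4 were higher and 1 lower, beside 16.7% called among all genes, and with scaled arrays 1 was higher and 2 were lower. Among them Nod1, a sensor of bacterial cell wall fragments, was higher by 1.01 ± 0.14 (adjusted p = 0.00036), while Il1b, the cytokine released on inflammasome activation, was lower, with a difference of -1.33 ± 0.17 (adjusted p = 0.00018), with 2.40 to 3.10 in C57BL/6 and 3.90 to 4.52 in BALB/c. Fcgr4, an activating receptor for IgG, was higher by 1.53 ± 0.23 (adjusted p = 0.00056).

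Myeloid genes were divided. Ngp, Ltf and Camp, proteins of neutrophil granules, were higher in C57BL/6 by 2.69 ± 0.26, 2.34 ± 0.30 and 1.56 ± 0.31 (adjusted p = 1.5e-05, 0.00026 and 0.0037). Ngp read 3.58, 3.21, 3.49 and 2.86 in C57BL/6, against -0.13 to 1.44 in BALB/c. Stfa2, a stefin of neutrophils chosen after its values were seen, was lower, with a difference of -1.97 ± 0.40 (adjusted p = 0.0044), in a run of 4 stefin neighbours. Of 17 neutrophil genes 5 were higher and 2 lower, beside 9.95% and 6.71% of all genes. After CpG ODN 7 of the neutrophil genes were higher and 1 lower, beside 8.47% and 6.73% of all genes. Ngp, Ltf and Camp were called there (adjusted p = 0.00012, 0.00012 and 0.028). Between TNF-KO and control ODN BALB/c spleens 0 of the neutrophil genes were higher and 5 lower, beside 3.61% and 5.73% of all genes. Ngp, Ltf and Camp were not called in that comparison (adjusted p = 0.24, 0.56 and 0.64). The chitinase-like Chil3 and Chil4 and the formyl peptide receptor Fpr2 were higher by 2.79 ± 0.52, 2.90 ± 0.21 and 2.94 ± 0.52 (adjusted p = 0.0032, 6.4e-07 and 0.0019). Chil4 was not called in the TNF-KO comparison (adjusted p = 0.11). Fpr2 was not called after CpG ODN (difference 0.76 ± 0.44, adjusted p = 0.27) or between TNF-KO and control ODN BALB/c spleens (-0.24 ± 0.64, adjusted p = 0.85). Marco, a scavenger receptor of marginal zone macrophages, was higher by 1.36 ± 0.25 (adjusted p = 0.0022), among 15 macrophage genes of which 6 were higher and 2 lower. With scaled arrays none of these 15 was higher and 2 were lower. After CpG ODN 1 was higher and 1 lower, beside 8.47% and 6.73% of all genes. Between TNF-KO and control ODN BALB/c spleens 0 were higher and 3 lower, beside 3.61% and 5.73%. Marco was called after CpG ODN (adjusted p = 0.025) but not in the TNF-KO comparison (-0.03 ± 0.35, adjusted p = 0.97).

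Red cell genes did not move together. Hbb-b1 and Hbb-b2, adult beta globins, were lower in C57BL/6, with differences of -1.92 ± 0.35 and -1.69 ± 0.30 (adjusted p = 0.0023 and 0.0018). Hbb-b1 read 4.61, 5.59, 4.60 and 4.81 in C57BL/6, against 6.19 to 7.80 in BALB/c, and the copies are too alike to tell apart. Whether these probes bind the beta globin alleles of both strains equally was not tested. Alad, the second enzyme of heme synthesis, was lower, with a difference of -1.66 ± 0.18 (adjusted p = 3.6e-05). Kel and Slc4a1, membrane proteins of red cells, were higher by 1.72 ± 0.33 and 1.32 ± 0.30 (adjusted p = 0.0034 and 0.0084), but a second probe of Slc4a1 gave 0.40 and its call ended with scaled arrays. Of 18 erythroid genes 5 were higher and 1 lower, with erythroid means per array of 3.8 to 4.81 in C57BL/6 and 3.46 to 4.07 in BALB/c. With scaled arrays, and with quantile normalization, 1 was higher and 1 lower. After CpG ODN 2 were higher and 1 lower, beside 8.47% and 6.73% of all genes. Kel was called there (adjusted p = 0.048) and Slc4a1 was not (adjusted p = 0.07). Between TNF-KO and control ODN BALB/c spleens 0 were higher and 11 lower, beside 3.61% and 5.73%. Kel and Slc4a1 differed by -1.19 ± 0.57 and -1.68 ± 0.51 there, and neither was called (adjusted p = 0.21 and 0.061).

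**Figure D3:**
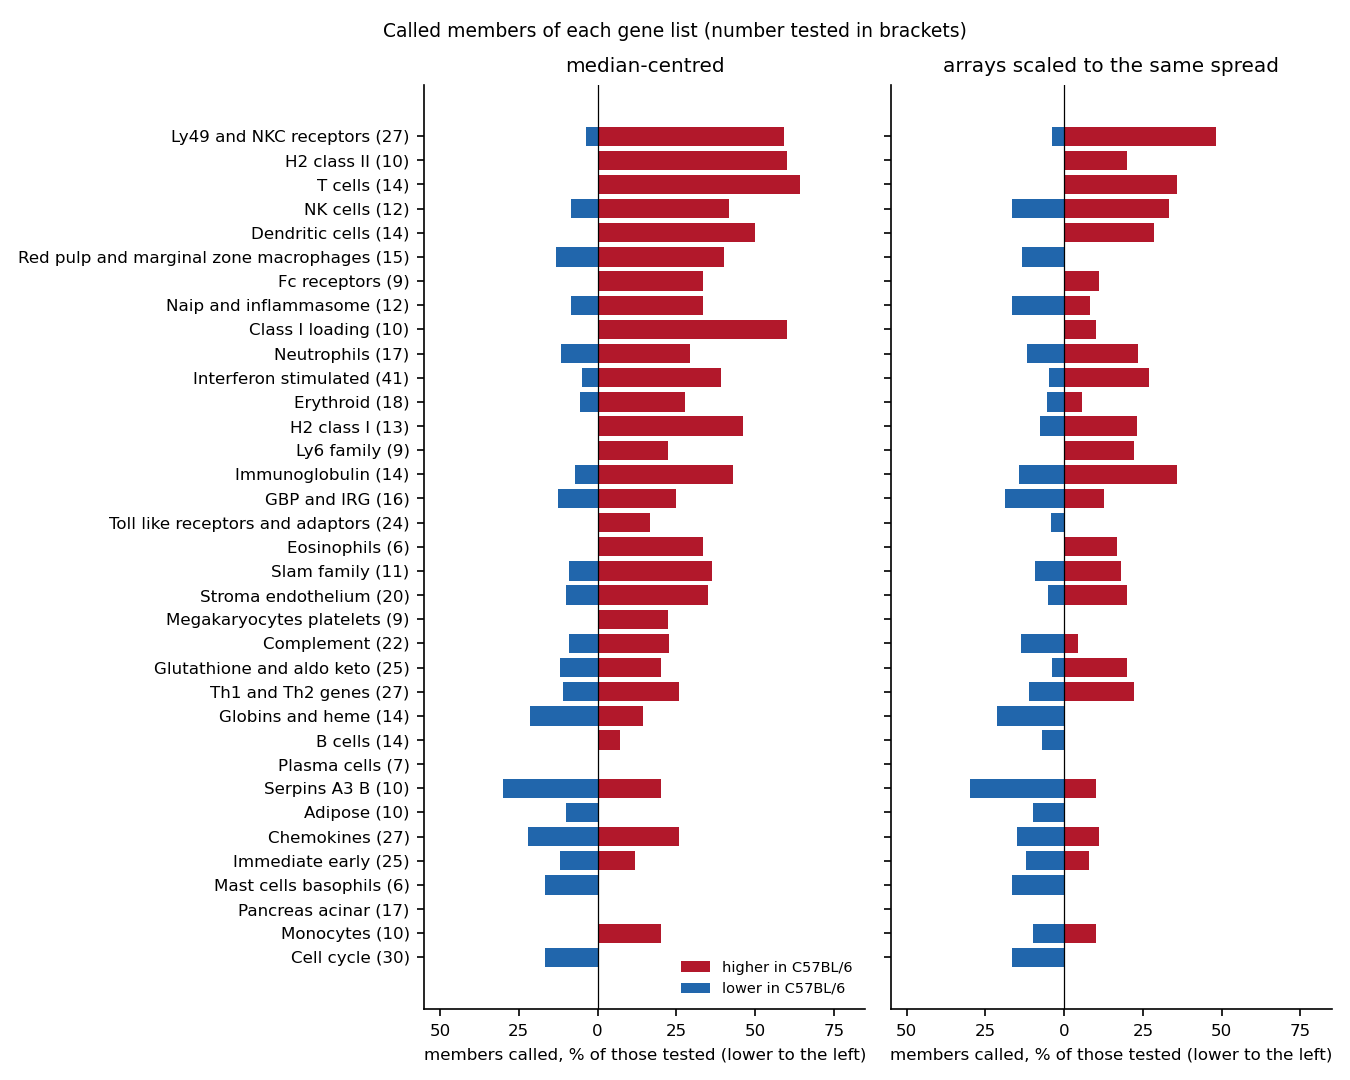
Share of the tested members of each gene list that were called (horizontal axis, percent), higher in C57BL/6 to the right and lower to the left. The left panel shows median-centred arrays and the right panel arrays scaled to the same spread. Of all 15132 genes tested, 1506 were higher and 1016 lower on the left, and 1136 and 868 on the right. Ly49 and NKC receptors had 16 higher calls on the left and 13 on the right, and macrophage genes had 6 on the left and 0 on the right.

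Several single genes outside these groups were far apart. Ctsc, cathepsin C, which activates granule proteases, was at 5.08, 3.93, 5.16 and 4.66 in C57BL/6, against 1.11 to 2.31 in BALB/c (difference 2.98 ± 0.25, adjusted p = 3.8e-06), and its second probe gave 1.08. Arsk, a lysosomal sulfatase, and Prcp, a lysosomal carboxypeptidase, were higher by 2.62 ± 0.13 and 2.48 ± 0.15 (adjusted p = 4.1e-08 and 1.7e-07). Arsk read 2.43 to 2.68 in C57BL/6, against -0.24 to 0.18 in BALB/c. Apobec3, a cytidine deaminase that restricts retroviruses, was chosen after its values were seen and was higher by 2.36 ± 0.17 (adjusted p = 6.4e-07). Ly6d, a surface protein of lymphocytes, was higher by 2.28 ± 0.17 (adjusted p = 1.1e-06). Clec4g, a lectin of sinusoidal endothelium, was higher by 2.78 ± 0.20 (adjusted p = 8.9e-07). The other genes among the 20 largest were S100g, Mfap1a, the olfactory receptors Olfr1457 and Olfr874, and Gpx3, at 2.41 to 3.34. Gpx3, plasma glutathione peroxidase, was not called between TNF-KO and control ODN BALB/c spleens (adjusted p = 0.42).

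Lower in C57BL/6 were Cap1, an actin regulator, with a difference of -3.73 ± 0.18, and Arg2, mitochondrial arginase, with -2.62 ± 0.32 (adjusted p = 4e-08 and 0.00018). Cap1 was at -4.04, -3.90, -4.52 and -3.57 in C57BL/6, against -0.58 to 0.02 in BALB/c. Krt82, Sec14l4, Ceacam15, Rgs11 and Ltb4r1 differed by -3.68, -3.51, -3.15, -2.92 and -2.87. Efr3b had values on 2 of 4 C57BL/6 arrays, 1.95 and 1.04, against a lowest value of 2.06 on 5 BALB/c arrays. Its difference of -3.55 ± 1.08 (adjusted p = 0.045) had the widest error of the 20, and it was not called after CpG ODN (adjusted p = 0.74). For some genes another probe gave a smaller value. P2rx7, an ATP-gated channel of immune cells, had -0.30, -0.96, -0.55 and -0.64 in C57BL/6, against 2.15 to 2.39 in BALB/c (difference -2.90 ± 0.15, adjusted p = 4.1e-08), and its other probe differed by -0.01. Cdh7, a cadherin, differed by -3.45 on 1 probe and 0.31 on the other. Pkhd1 and Vipr1 differed by -3.08 and -2.86, with other probes at -0.65 and -0.67 for Pkhd1 and at -0.44 for Vipr1. Of 868 called genes with another probe, all others had the same sign for 515 (59.3%). Another probe was called in the same direction for 224 (25.8%) and in the opposite direction for 40 (4.61%). Over all 5126 genes with another tested probe, called or not, the first other probe had the same sign for 2959 (57.7%). That share counts a single other probe per gene, so it is not the same measure as the 59.3%. Which transcripts or alleles each probe binds was not tested.

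Calls were also read along the gene order. The next gene in order was also higher for 14.2% of the genes called higher, beside 9.96% of all ordered genes, and also lower for 9.97% of those called lower, beside 6.71%. Runs of at least 3 numbered 38 and held 133 genes. Neighbours can be copies of one another, as in the serpin, Ly49, stefin and Ifit runs.

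The strain difference was then read on arrays that the untreated comparison did not use. At 3 h after CpG ODN 2306 of 15171 genes (15.2%) differed between C57BL/6 and BALB/c, 1285 higher (8.47%) and 1021 lower (6.73%). Among genes tested in both, 1134 were called in the same direction, which is 45.2% of the untreated calls and 49.4% of the calls after CpG ODN, and 13 were called in opposite directions. Between untreated TNF-KO and control ODN BALB/c spleens 1409 of 15083 genes (9.34%) differed, 544 higher (3.61%) and 865 lower (5.73%), and 582 were called the same way, 23.2% of the untreated calls and 41.5% of the others, with 11 opposite. The count after CpG ODN was 1402 without BALB/c replicate 3. The TNF-KO count was 750, 625 and 658 without TNF-KO replicates 1, 2 and 3 and 770 without control ODN replicate 3. The TNF-KO arrays had low erythroid means on 3 of 4 arrays, between 1.47 and 1.72, and 3.95 on the other. The part of this in the TNF-KO comparison was not tested. All these arrays lie in runs that hold a single strain as well.

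On the 40 arrays outside the untreated comparison, of 12 C57BL/6 and 28 BALB/c spleens under several treatments, the strains did not overlap for 124 of 14665 genes (0.846%), above in C57BL/6 for 59 (0.402%) and below for 65 (0.443%). Of these 124, 115 were also called between untreated spleens in the same direction, 54 higher and 61 lower, and 0 in the opposite one. They included 8 of the 20 largest higher genes and 17 of the 20 largest lower genes. Serpina1a, for example, stayed between 1.05 and 2.94 on the 12 C57BL/6 arrays and between 6.15 and 8.12 on the 28 BALB/c arrays. Ighg2c stayed between 1.95 and 4.26 in C57BL/6 and between -3.35 and -0.14 in BALB/c. Ctsc, Igha, Arsk, Prcp, Apobec3, Hopx and Ly6d were above, and Vpreb2, Cap1, P2rx7, Cdh7 and Serpinb2 below. The 115 genes had a median absolute difference of 1.64 in untreated spleen, against 0.77 for all called genes.

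**Figure D4:**
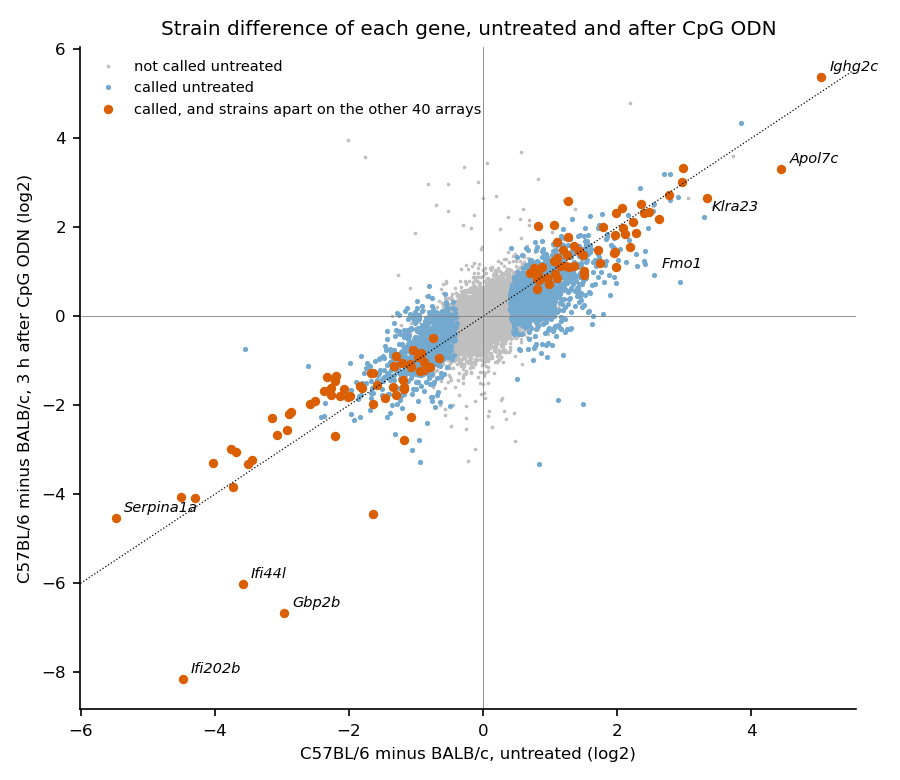
C57BL/6 minus BALB/c (log2) of each gene in untreated spleens (horizontal axis) and 3 h after CpG ODN (vertical axis), which share no arrays. Grey points were not called in untreated spleen, blue points were, and orange points are the 115 genes whose strains also lay apart on the other 40 arrays. The dotted line marks equal differences, and Ifi202b, Gbp2b and Ifi44l lie well below it.

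For a small set the strain difference changed with CpG ODN. The difference of strain differences was tested in a fit of all 50 arrays and was called for 69 of 15259 genes (0.452%). Gbp2b differed between the strains by -2.98 untreated and by -6.68 ± 0.23 after CpG ODN (change -3.71, adjusted p = 8.5e-10). Its mean was -1.05 after CpG ODN and -0.89 untreated in C57BL/6, against 5.63 and 2.08 in BALB/c. Ifi202b had means of -6.48 and -6.34 in C57BL/6 and of 1.68 and -1.86 in BALB/c in the same order (change -3.67, adjusted p = 4.2e-10), and Ifi44l of -1.64 and -2.06 against 4.39 and 1.53 (change -2.44, adjusted p = 0.0062). For all 3 the C57BL/6 and BALB/c arrays did not overlap on the other 40 arrays, TNF-KO included.

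Ifi204 and Gbp3 were higher in untreated C57BL/6 spleen, and after CpG ODN their strain differences were -0.28 ± 0.17 (adjusted p = 0.29) and -0.82 ± 0.22 (adjusted p = 0.026). Ifi204 averaged 2.23 after CpG ODN and -0.65 untreated in C57BL/6, against 2.51 and -1.95 in BALB/c (change -1.58, adjusted p = 0.0042). Gbp3 averaged 3.69 and 2.51 in C57BL/6, against 4.51 and 1.65 in BALB/c (change -1.68, adjusted p = 0.0017). Fmo1, a flavin monooxygenase, was at 2.26, 1.83, 1.98 and 2.35 in untreated C57BL/6 and at -1.04 to -0.07 in BALB/c (difference 2.54 ± 0.19, adjusted p = 1.2e-06). After CpG ODN it averaged 0.72 in C57BL/6 and -0.22 in BALB/c, a difference of 0.94 ± 0.26 (change -1.61, adjusted p = 0.0072). TNF-KO spleens averaged 1.88 after CpG ODN and 2.24 untreated.

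**Figure D5:**
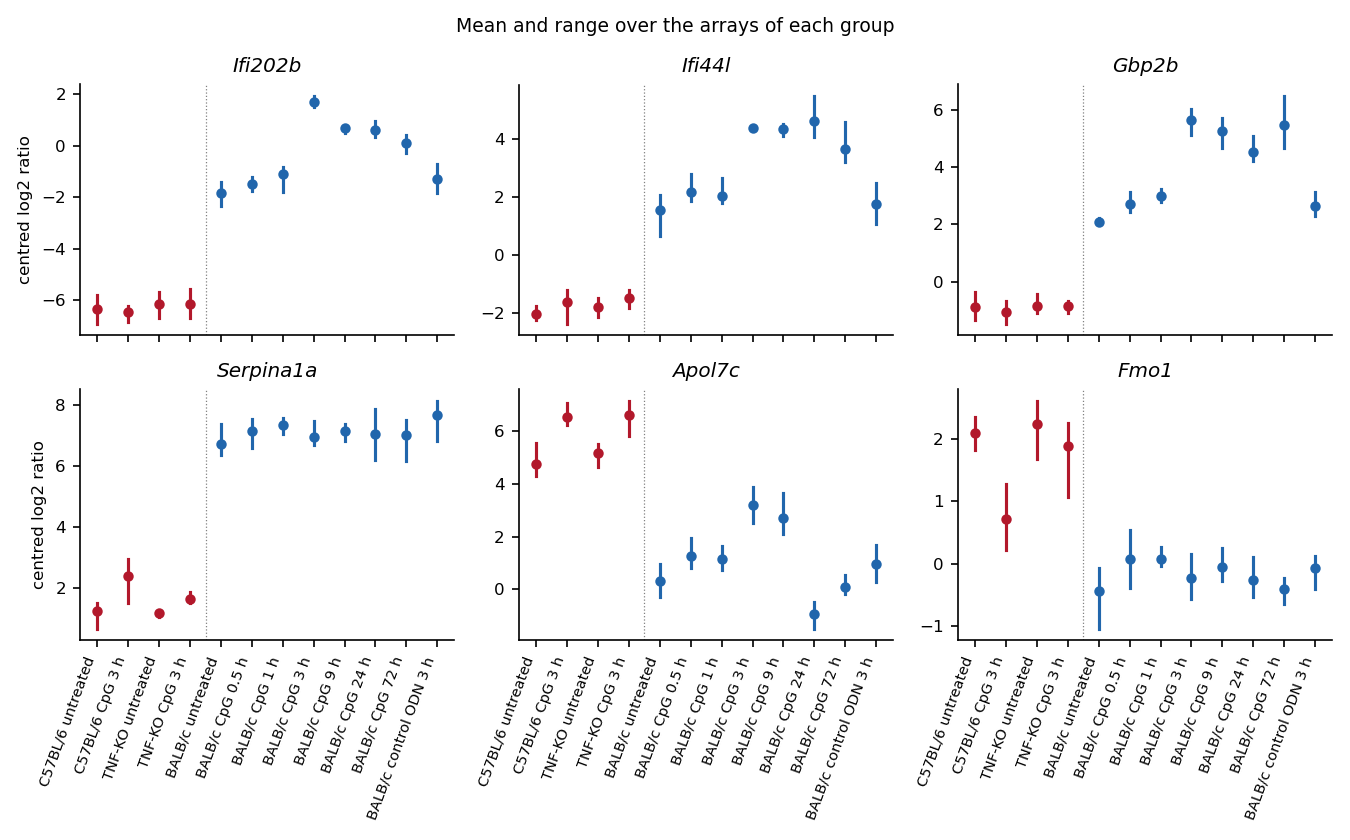
Mean (point) and range (line) of the centred log2 ratio (vertical axis) of 6 genes in the 12 groups of the series, C57BL/6 groups left and BALB/c groups right of the dotted line. Ifi202b, Ifi44l and Gbp2b are low in all 4 C57BL/6 groups and higher at 3 h and later after CpG ODN in BALB/c. Apol7c also rises in BALB/c, from a mean of 0.3 untreated to 3.22 at 3 h after CpG ODN. All of these and Serpina1a keep the strains apart in every group.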

How the data were processed

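Per the labels, the authors labelled spleen RNA with Cy5 and the reference with Cy3, and per the series' design text the background was subtracted, flagged spots and spots weak in both channels were dropped, the log2 ratios were adjusted by lowess and genes on over 70% of arrays were kept. The deposited log2 ratios, on 30750 of 36607 probes, were used, intensities were not, and signal over background was not analysed here. A probe's gene came from the platform annotation (26926 probes with 1 symbol, 203 with several, 9478 with none), and gene order from RefSeq for GRCm38.p6. Probe sequences and their build were not used here.

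Each array was centred on its median. The probe with most values stood for a gene, first listed on ties. Genes with values on at least 70% of the arrays of a fit were tested with limma 3.58.1 (lmFit, eBayes, R 4.3.3), adjusted by Benjamini-Hochberg over all genes, with a threshold of 0.05. The fits were tested on simulated data. Groups followed the titles. Whether untreated arrays came from separate days is not stated, so p-values measure the spread between arrays. Replicate numbers are shared by the strains, but same-numbered arrays deviated with correlations from -0.192 to 0.194, so no block was used.

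The members and gene lists were chosen with earlier results of these data known. Named genes are the 20 largest differences in each direction among called genes with no overlap of arrays and no provisional name, up to 4 members per list with the smallest p, and called neighbours of these. Another probe is given where it differs by over 1 or shows under 0.5 times the difference. Alternatives covered scaling, quantile normalization, centring, missing values, probe choice, pooled fits, array run as a random block, array weights, the replicate block, a pancreas covariate, a 2-fold rule and leaving out each array.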

Additional observations from a re-analysis of the deposited data

Results flagged for a closer look

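For 8 genes named here the test called a change in the strain difference 3 h after CpG ODN, by the interaction in the fit of all 50 arrays. The change was -3.71 for Gbp2b, -3.67 for Ifi202b, -2.44 for Ifi44l, -1.68 for Gbp3, -1.61 for Fmo1, -1.58 for Ifi204, -1.55 for Serpina3n and -1.46 for Hlf. Serpina3n averaged 4.08 after CpG ODN and 2.74 untreated in C57BL/6, against 4.54 and 1.65 in BALB/c. Hlf, a clock-controlled transcription factor chosen after its values were seen, averaged -0.93 and 0.68 in C57BL/6, against -0.63 and -0.48 in BALB/c.

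In 5 genes 1 array stood apart from the others of its group by Dixon's test, which chance gives in about 1 of 20 groups. Psmb8 had its lowest BALB/c array at 1.53, and Il4ra its highest BALB/c array at 1.05. Adgre1, a macrophage surface receptor, had its lowest C57BL/6 array at 2.85, and its second probe differed between the strains by -0.75 where the first gave 0.75. Prg3, an eosinophil granule protein, had its highest C57BL/6 array at 2.26. Apol10a had its lowest BALB/c array at 0.02.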

How the results depend on the processing

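Strain and array run cannot be told apart, C57BL/6 has 4 arrays, and signal over background is not known. Between untreated spleens 2522 genes were called, 2004 with arrays scaled to the same spread and 1917 with array run as a random block in the fit of all 50 arrays. Leaving out 1 array gave between 1797 and 2312. With the replicate number as a block 1663 were called, 954 of them higher, beside 1768 for replicates 1 to 4 without a block, an alternative chosen after seeing the data. A minimum of 2-fold left 664, 381 higher and 283 lower. Fitting every named probe gave 1622 of 23288 probes lower, a count of probes, beside 1016 of 15132 genes. After CpG ODN the 2-fold minimum left 652 of 2306 genes, 294 higher and 358 lower, and leaving out 1 array gave 1402 to 2247 in all, 759 to 1294 higher and 643 to 953 lower. Between TNF-KO and control ODN BALB/c spleens the fit of all 50 arrays called 2581 genes, 1070 higher and 1511 lower, the 2-fold minimum left 768, 267 higher and 501 lower, and leaving out 1 array gave 625 to 1698 in all, 213 to 600 higher and 406 to 1098 lower. For the change with CpG ODN all 50 arrays gave 69 genes. With only the 18 arrays of the 4 groups it was 83 without a replicate block and 39, 37 lower, with it. The count higher was 2, against 6 with only the 18 arrays and 4 with scaled arrays. Among 133 genes followed through the alternatives, some of them not named here, 102 kept direction and call under every setting other than leaving out an array. When 1 array was left out, 122 did. The only reversal was H2-Aa, at -0.01 with scaled arrays. The causes were not tested.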

Other observations

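Genes of the circadian clock, a list chosen after its values were seen, were higher in C57BL/6 spleen. Of 17 tested genes 8 were higher and 0 lower, with a median difference of 0.49 beside 0.04 for all genes, and no hour of collection is stated in the labels. Dbp, a clock-controlled transcription factor, was at 0.52, 0.77, 0.67 and 0.74 in C57BL/6, against -1.94 to -1.41 with a median of -1.78 in BALB/c (difference 2.41 ± 0.14, adjusted p = 1.2e-07). Per3 and Per2, repressors of the clock, were higher by 1.49 ± 0.16 and 1.05 ± 0.17 (adjusted p = 3.8e-05 and 0.0011), and a second probe of Per2 gave 0.39. Tef and Hlf, relatives of Dbp, were higher by 0.93 ± 0.14 and 1.16 ± 0.22 (adjusted p = 0.00056 and 0.0027). Cry1, a repressor that peaks later than Dbp, was higher by 0.54 ± 0.14 (adjusted p = 0.017) and lost its call with array run as a random block (adjusted p = 0.11). After CpG ODN Dbp differed by 1.17 ± 0.22 (adjusted p = 0.0052), and Per2 and Per3 were called, while Tef, Hlf and Cry1 were not (adjusted p = 0.96, 0.28 and 0.2). Between untreated TNF-KO and control ODN BALB/c spleens Dbp differed by 1.70 ± 0.31 (adjusted p = 0.0079), and Tef and Hlf were called, while Per2, Per3 and Cry1 were not (adjusted p = 0.053, 0.076 and 0.7). The part of collection time in these values was not tested.

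Heat shock genes, also listed after values were seen, had 0 of 18 higher and 4 lower, beside 9.95% and 6.71% of all genes. Their median difference was -0.36. Cell cycle genes had 0 of 30 higher and 5 lower, beside the same shares of all genes, with a median of -0.23. Of the 30, 1 was lower with array run as a random block in the fit of all 50 arrays, where 811 of 15279 genes were lower. Mcm5, a subunit of the replicative helicase, was at -0.48 to -0.22 in C57BL/6 and at 0.08 to 0.40 in BALB/c (difference -0.52 ± 0.12, adjusted p = 0.012), and in the fit of all 50 arrays it missed the threshold (adjusted p = 0.23). Of the 6979 probes tested that carry no gene symbol 870 (12.5%) were called.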
